A study of Mus musculus with 9 samples.

Results

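The genes described here are the 10 of the cystine import, glutathione and thioredoxin system, namely Slc7a11, Gclc, Gclm, Gss, Gsr, Txn1, Txnrd1, Txnrd2, Txnip and Srxn1. They were chosen by name and found by their Ensembl identifiers among the 54432 genes of the count table, where all 10 were present, each in a single row. RNAseq had been performed on 9 libraries of RAW 264.7 cells, a transformed mouse macrophage line. The 3 control libraries were from untreated cells, 3 were from cells given VLDL-sized emulsion particles at 1 mM for 6 hours, and 3 were from cells given CHYL-sized particles at 1 mM for 6 hours. Both particles are artificial triglyceride-rich droplets, and CHYL stands for chylomicron, the larger of the natural lipoproteins they imitate. Per the methods each library pooled the technical replicates of an experiment, and all come from the same cell line. The labels and the methods give this dose for both particles, while another passage of the study gives a lower dose of CHYL-sized particles for RNAseq of these cells, so a difference of dose between the particle groups cannot be told apart from one of size if that passage holds. An untreated control does not separate the lipid from other properties of an emulsion. Library depth was even, between 22393893 and 22856792 counts, so 1 cpm (1 count in 1000000) before scaling stood for about 22.4 to 22.9 counts. The levels below are cpm after TMM scaling. It multiplied each depth by a factor between 0.964 (VLDL-sized replicate 3) and 1.052 (control replicate 1), so the counts behind 1 cpm differ accordingly.

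Cells keep their proteins and lipids reduced with glutathione and thioredoxin, and both depend on NADPH. Slc7a11 brings in cystine, the oxidised form of cysteine. Gclc and Gclm form the glutamate-cysteine ligase that joins cysteine to glutamate, Gss adds glycine to complete glutathione, and Gsr reduces oxidised glutathione. Thioredoxin (Txn1) is kept reduced by the selenoenzyme thioredoxin reductase (Txnrd1 in the cytosol, Txnrd2 in mitochondria) and is bound by Txnip, while sulfiredoxin (Srxn1) repairs over-oxidised peroxiredoxins. Several of these genes are textbook targets of the transcription factor NRF2, Slc7a11 is also a known target of ATF4, and Txnip is known to respond to glucose through MondoA and Mlx.

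The cells carried the markers of their label. All 9 macrophage markers passed the filter on low counts, and their summed level was 6924 to 7009 cpm in control cells, 6181 to 6374 cpm after VLDL-sized particles and 6359 to 6560.4 cpm after CHYL-sized particles, with Lyz2 the most abundant. With limma-voom and an adjusted p under 0.05, 6 of the 9 were lower after VLDL-sized particles, against 17.9% of all genes tested, and 1 (Cd68) was higher, against 17.8%. After CHYL-sized particles 3 of the 9 were lower, against 13.0% of all genes. The part of these markers in the results was not tested. The 4 epithelial markers were at 0 counts in every library, and the summed markers of fibroblasts, T cells and endothelium were at most 2.53, 0.343 and 1.97 cpm. Among these Dcn, Cd8a and Tek were at 0 in every library.

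The libraries numbered replicate 3 stood apart from replicates 1 and 2 in every group. Along the first component of the deviations from the group means, which held 28.9% of their variance, they lay at 20.3 to 22.7 and the other 6 libraries at -12.2 to -8.6. Replicate 3 was the highest library of all 3 groups for 7 of the 10 genes (Slc7a11, Gclc, Gclm, Gsr, Txn1, Txnrd1 and Srxn1), against 18.8% of all genes tested, and the lowest of all 3 groups for Txnip, against 19.2%. The sources do not say how these libraries differed, and the part of that difference in the results was not tested. For single genes named below, calls against control that changed without them are therefore given both ways. Between the particles, changed calls are given both ways for the 10 genes and as counts for the lists of related genes.

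After VLDL-sized particles 8 of the 10 genes rose and 1 fell, with limma-voom and a Benjamini-Hochberg adjusted p under 0.05 as the threshold. In that comparison 35.6% of the 12637 genes tested passed, 17.8% higher and 17.9% lower. After CHYL-sized particles the same 8 genes rose and none fell, where 25.7% of genes passed, 12.7% higher and 13.0% lower. The split of the background depended on the scaling. With library size alone in place of TMM, the median of all genes moved by -0.094 and -0.079, and 11.9% of genes passed higher and 26.2% lower after VLDL-sized particles, and 8.45% higher and 19.9% lower after CHYL-sized particles. The same 8 genes rose with that scaling, and Txnip fell after VLDL-sized particles, while 7 of the 9 macrophage markers were then lower and none higher in each comparison. For 9 of the 10 genes the control libraries did not overlap with the particle libraries in either comparison, against 47.4% and 41.7% of all genes. All 10 genes passed the filter on low counts. Their median log2 fold change was 1.77 after VLDL-sized and 1.73 after CHYL-sized particles, while the medians of all genes tested were -0.00028 and 0.0013. Of the 10 genes, 6 rose by more than 1 on the log2 scale in each comparison, against 2.27% and 1.70% of all genes. In bulk RNA, a change in RNA per cell and a change in the share of cells that express a gene cannot be told apart. Both comparisons use the same 3 control libraries.

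**Figure D1:**
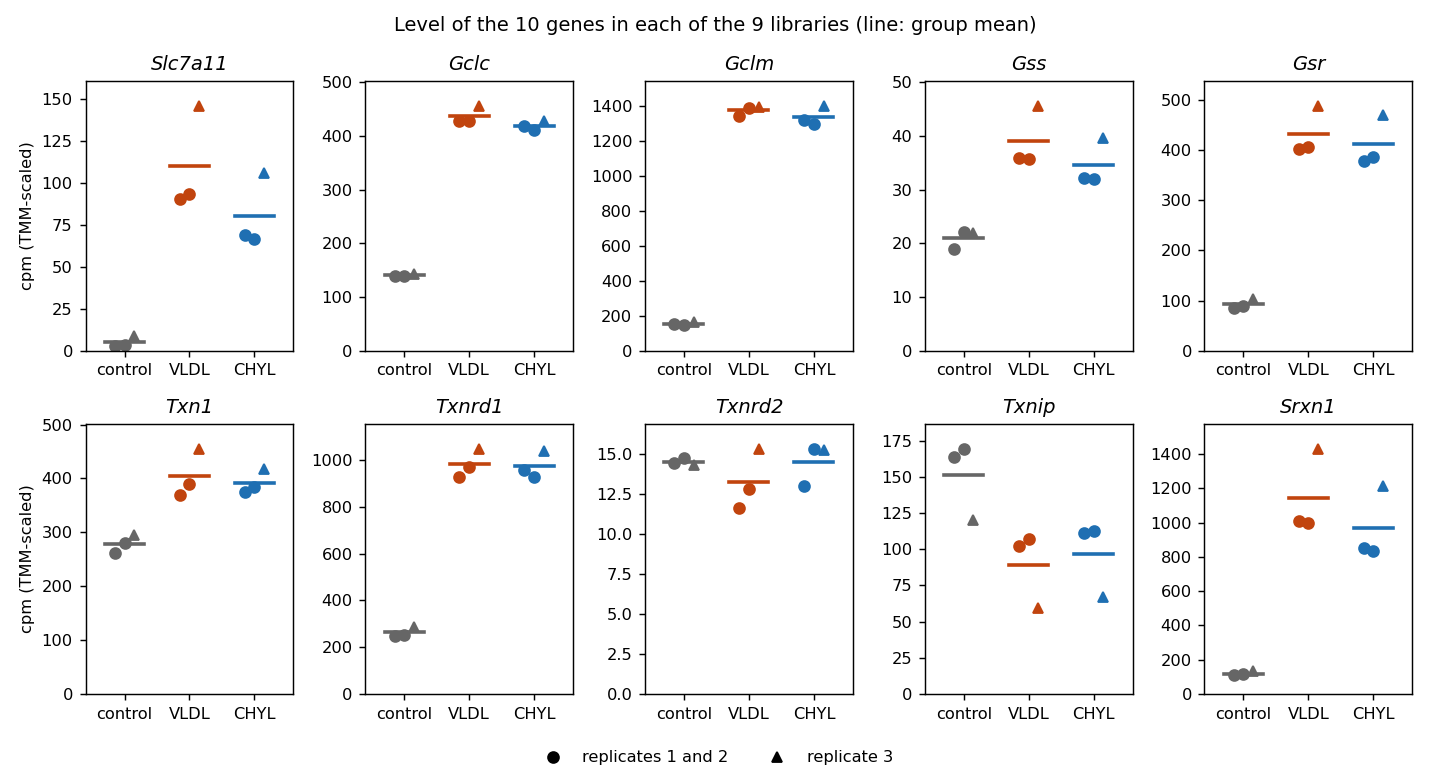
Levels of the 10 genes in cpm after TMM scaling (y axis, from 0, scaled separately for each gene) in the 3 libraries of each group (x axis), with circles for replicates 1 and 2, triangles for replicate 3 and a line for the group mean. For 8 genes all 6 particle libraries lie above the 3 control libraries, Txnip lies below, Txnrd2 overlaps, and the triangles are the highest points of every group for 7 genes.

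Slc7a11, the cystine carrier, rose more than any other of the 10 genes. It lies on the minus strand of GRCm38 chr3:49892526-50443614 (ENSMUSG00000027737). In cpm, control held 2.94, 3.67 and 8.57 cpm, the VLDL-sized libraries 90.4, 93.5 and 146 cpm, and the CHYL-sized libraries 69.1, 66.4 and 106 cpm. Every particle library was above every control library, and replicate 3 was the highest of each group. The rise was 23.7-fold after VLDL-sized particles (log2 4.56, SE 0.44, adjusted p = 2.3e-05) and 17.4-fold after CHYL-sized particles (log2 4.12, SE 0.44, adjusted p = 8.5e-05), the 11th largest log2 fold change of the 12637 genes in each comparison. Without the replicate 3 libraries the log2 fold changes were 4.80 and 4.36. Its interval was the widest of the 10 genes, from 3.60 to 5.53 in the first comparison. The SE of 0.44 there became 0.13 with replicate 3 as a term in the model and 0.14 without the replicate 3 libraries, while the control libraries held 70 to 200 counts of this gene.

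The 250 bases before the RefSeq start of Slc7a11 are shown because they hold a pair of matches to TGATGNAA, the letters of the CARE element read by ATF4. RefSeq promoter windows, reaching 250 bases before to 50 bases after a start, were found for 8 of the 10 genes. The letters were searched on both strands, and 3.97% of all 32851 windows held at least 1 match. In the sequence, on the minus strand of GRCm38.p6 chr3:50443614-50443863, capitals mark the matches, at bases -66 to -59 on the gene's strand and -47 to -40 on the opposite strand. No window of the other 7 genes held these letters. A match describes the sequence and was not tested as a site.
Slc7a11: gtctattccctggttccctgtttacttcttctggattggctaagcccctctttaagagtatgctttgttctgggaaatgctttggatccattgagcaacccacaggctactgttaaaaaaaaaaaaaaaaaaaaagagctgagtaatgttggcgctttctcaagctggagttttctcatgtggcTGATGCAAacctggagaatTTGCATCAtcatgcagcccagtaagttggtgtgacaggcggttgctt

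The heavy chain that pairs with Slc7a11 in the cystine carrier, Slc3a2, also rose, but by less. Its level was 277, 264 and 279 cpm in control cells, 436, 414 and 541 cpm after VLDL-sized and 347, 369 and 479 cpm after CHYL-sized particles. The particle libraries lay above control, with log2 fold changes of 0.75 (SE 0.12, adjusted p = 7.7e-04) and 0.53 (SE 0.12, adjusted p = 0.009). Counted within each library, the log2 ratio of Slc7a11 to Slc3a2 went from -5.91 ± 0.79 (SD, n = 3) in control to -2.10 ± 0.19 (n = 3) and -2.32 ± 0.15 (n = 3) after VLDL-sized and CHYL-sized particles. On the linear scale of counts that is 0.0166 Slc7a11 counts for each Slc3a2 count in control, against 0.233 and 0.2 after the particles. The 6 particle libraries lay above the 3 control libraries (difference 3.69 on the log2 scale, two-sided exact permutation test, p = 0.024, adjusted p = 0.024 over 6 ratios, the smallest p that 6 against 3 libraries allow).

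Both subunits of glutamate-cysteine ligase rose, and the modifier subunit rose more than the catalytic subunit. Gclc, which carries the catalytic site (GRCm38 chr9:77754535-77794485, plus strand, ENSMUSG00000032350), held 139.6, 139.6 and 143 cpm in control cells, 428, 429 and 457 cpm after VLDL-sized and 419, 411 and 429 cpm after CHYL-sized particles. The libraries within a group were close together and the groups did not overlap with control. Gclc rose 3.12-fold (log2 1.64, SE 0.04, adjusted p = 5.6e-09) and 2.98-fold (log2 1.58, SE 0.04, adjusted p = 1.1e-08). Gclm, the modifier subunit (chr3:122245557-122270732, plus strand, ENSMUSG00000028124), held 151, 148 and 165 cpm in control cells, 1338, 1388 and 1393 cpm after VLDL-sized and 1316, 1295 and 1399.8 cpm after CHYL-sized particles. Control and particle libraries were again fully separate. Gclm rose 8.89-fold (log2 3.15, SE 0.05, adjusted p = 1.7e-10) and 8.66-fold (log2 3.11, SE 0.05, adjusted p = 2.0e-10), the smallest adjusted p among the 10 genes in both comparisons.

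The balance of the subunits moved in every particle library. There were 1.1 Gclm counts for each Gclc count in control, 3.13 after VLDL-sized and 3.18 after CHYL-sized particles (log2 ratios 0.13 ± 0.06, 1.65 ± 0.04 and 1.67 ± 0.03, SD, n = 3 each). Gclm has more exonic bases when its annotated transcripts are merged, 6291 against 3766 for Gclc. The ratio therefore compares libraries and does not give the subunits' molar ratio. The difference of 1.52 on the log2 scale separated all 6 particle libraries from all 3 control libraries (exact permutation test, two-sided, p = 0.024, adjusted p = 0.024). A pseudogene on the same strand within the Gclm exons, Gm6061, held 7, 0 and 5 counts in control and 19 to 33 counts in the particle libraries. These were few beside the 3514 to 3839 control counts of Gclm. Gm17494, which shares exonic bases with Gclm on the opposite strand, held 134 to 239 counts in control. In the particle libraries it held 191 to 260 counts, and the use of strand in counting is not given.

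The promoter sequence of Gclm is shown for its match to TGACNNNGC, the core of the antioxidant response element that NRF2 reads. In this sequence, on the plus strand of GRCm38.p6 chr3:122245307-122245556, capitals mark a match on the opposite strand at bases -134 to -126. Of all windows 12.4% held the core, and Gclm, Srxn1 and Txnrd1 were the members with it among the 8 with a window. No window was found for Gclc or Gsr.
Gclm: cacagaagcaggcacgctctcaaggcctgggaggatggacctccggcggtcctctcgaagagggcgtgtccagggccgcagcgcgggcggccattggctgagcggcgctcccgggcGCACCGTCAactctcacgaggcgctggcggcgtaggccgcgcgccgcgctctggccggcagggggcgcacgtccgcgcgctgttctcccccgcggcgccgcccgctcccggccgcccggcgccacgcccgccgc

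Gss and Gsr, which complete and recycle glutathione, rose by different amounts. Gss, glutathione synthetase (chr2:155563181-155592810, minus strand, ENSMUSG00000027610), held 18.9, 22.1 and 21.9 cpm in control cells, 35.9, 35.8 and 45.7 cpm after VLDL-sized and 32.2, 32.0 and 39.7 cpm after CHYL-sized particles. Replicate 3 was high in both particle groups and lay between the other libraries in control, and control did not overlap with the particles. Gss rose 1.86-fold (log2 0.89, SE 0.12, adjusted p = 2.7e-04) and 1.64-fold (log2 0.72, SE 0.12, adjusted p = 0.0019). The Gss locus shares exonic bases with Acss2 on the opposite strand, which held 479 to 703 counts per library, and whether counting used strand is not given in the sources used here. Gsr, glutathione reductase (chr8:33652523-33698163, plus strand, ENSMUSG00000031584), held 85.2, 88.9 and 103 cpm in control cells, 403, 407 and 489 cpm after VLDL-sized and 378, 386 and 471 cpm after CHYL-sized particles. All particle libraries were above control and replicate 3 was the highest of each group. Gsr rose 4.69-fold (log2 2.23, SE 0.11, adjusted p = 2.2e-07) and 4.45-fold (log2 2.15, SE 0.11, adjusted p = 3.7e-07). Counts of Gclc for each count of Gss went from 6.71 in control to 11.3 and 12.2 after the particles, a log2 difference of 0.80 (exact permutation test, two-sided, p = 0.024, adjusted p = 0.024).

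In the thioredoxin arm the cytosolic Txnrd1 and Txn1 rose, while no change of their mitochondrial counterparts Txnrd2 and Txn2 passed. Txnrd1, the cytosolic reductase (chr10:82833951-82897712, plus strand, ENSMUSG00000020250), held 249, 253 and 287 cpm in control cells, 929, 971 and 1049 cpm after VLDL-sized and 956, 928 and 1038 cpm after CHYL-sized particles. The particle libraries were all far above control. Txnrd1 rose 3.74-fold (log2 1.90, SE 0.07, adjusted p = 3.6e-08) and 3.70-fold (log2 1.89, SE 0.07, adjusted p = 4.8e-08). Txnrd2, the mitochondrial reductase (chr16:18426384-18479073, plus strand, ENSMUSG00000075704), held 14.4, 14.7 and 14.3 cpm in control cells, 11.6, 12.8 and 15.3 cpm after VLDL-sized and 13.0, 15.3 and 15.2 cpm after CHYL-sized particles. The groups of Txnrd2 overlapped, and no change passed the test. Its log2 fold change was -0.14 after VLDL-sized particles (95% interval -0.38 to 0.10, adjusted p = 0.35) and -0.0014 after CHYL-sized particles (interval -0.23 to 0.23, adjusted p = 0.99), so a rise the size of that of Txn1 lies outside both intervals.

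Counts of Txnrd1 for each count of Txnrd2 were 18.1 in control, 74.7 after VLDL-sized and 67.2 after CHYL-sized particles, a log2 difference of 1.97 (exact permutation test, two-sided, p = 0.024, adjusted p = 0.024). Eid3 lies within the Txnrd1 locus on the same strand with no shared exon and held 2, 3 and 0 counts in control, 18, 18 and 18 after VLDL-sized and 18, 24 and 17 after CHYL-sized particles. It was singled out after its values were seen. Txnrd3, a reductase of the same family, was at 9.1, 9.4 and 9.0 cpm in control cells, 11.5, 10.2 and 11.2 cpm after VLDL-sized and 9.70, 11.0 and 12.0 cpm after CHYL-sized particles. Its particle libraries lay above control, but the log2 values of 0.25 and 0.24 did not pass (adjusted p = 0.074 and 0.1).

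Thioredoxin itself showed the smallest of the 8 rises. Txn1 (chr4:57943373-57956411, minus strand, ENSMUSG00000028367) held 261, 280.0 and 295 cpm in control cells, 369, 389 and 455 cpm after VLDL-sized and 374, 384 and 418 cpm after CHYL-sized particles. Control and particle libraries did not overlap. Txn1 rose 1.45-fold (log2 0.53, SE 0.08, adjusted p = 4.9e-04) and 1.41-fold (log2 0.49, SE 0.08, adjusted p = 0.0013). Its mitochondrial relative Txn2 held 149.8, 156 and 152 cpm in control cells, 148, 145 and 158 cpm after VLDL-sized and 147, 159 and 154 cpm after CHYL-sized particles. The groups of Txn2 overlapped, with log2 fold changes of -0.02 (interval -0.13 to 0.09) and 0.01 (interval -0.10 to 0.12). Within libraries the ratio of Txn1 to Txn2 counts went from 1.82 to 2.68 and 2.56, a log2 difference of 0.52 (exact permutation test, two-sided, p = 0.024, adjusted p = 0.024).

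**Figure D2:**
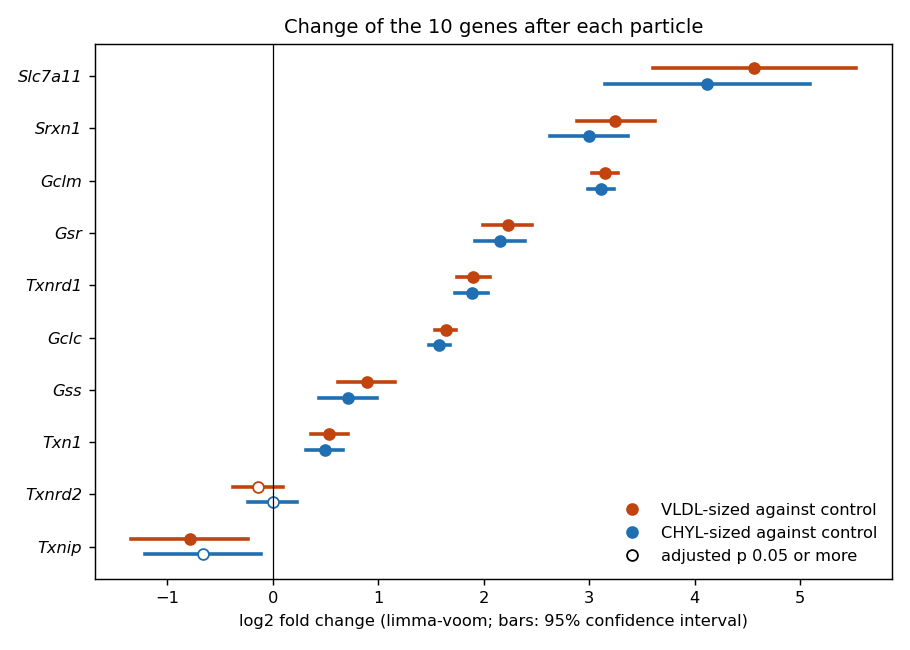
Log2 fold change of each of the 10 genes (y axis) after VLDL-sized and CHYL-sized particles against control (x axis), with 95% confidence intervals from limma-voom and open circles for an adjusted p of 0.05 or more. The values run from 4.56 and 4.12 for Slc7a11 to -0.79 and -0.66 for Txnip, and the intervals of Txnrd2 include 0.

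Srxn1, which restores over-oxidised peroxiredoxins, rose about as much as Gclm. It lies on the plus strand of chr2:152105516-152111376 (ENSMUSG00000032802). Its level was 111, 114 and 132 cpm in control cells, 1008, 995 and 1431 cpm after VLDL-sized and 851, 833 and 1213 cpm after CHYL-sized particles. Replicate 3 stood well above the other libraries of both particle groups, and none of the particle libraries came near control. Srxn1 rose 9.50-fold (log2 3.25, SE 0.17, adjusted p = 3.5e-07) and 8.01-fold (log2 3.00, SE 0.17, adjusted p = 8.6e-07). Without the replicate 3 libraries the log2 fold changes were 3.15 and 2.90.

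The Srxn1 promoter is shown because it carries TGANTCAGC, the AP-1 letters TGANTCA followed by the closing GC of the antioxidant response element core, held by 1.19% of all windows. In the sequence, on the plus strand of GRCm38.p6 chr2:152105274-152105523, capitals mark the match at bases -45 to -37. These letters were added to the search after the Srxn1 window had been seen, and no other member with a window held them. This match does not hold the core TGACNNNGC, and the core match of Srxn1 lies after the start, at bases 29 to 37 on the opposite strand, outside the bases shown.
Srxn1: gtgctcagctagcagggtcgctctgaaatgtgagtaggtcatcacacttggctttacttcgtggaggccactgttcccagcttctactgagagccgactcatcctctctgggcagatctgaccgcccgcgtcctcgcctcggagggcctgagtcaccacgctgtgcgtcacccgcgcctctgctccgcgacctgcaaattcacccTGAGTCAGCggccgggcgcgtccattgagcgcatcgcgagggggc

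Txnip, which binds thioredoxin and restrains it, was the gene that fell after VLDL-sized particles. It lies on the plus strand of chr3:96557957-96561883 (ENSMUSG00000038393). Its level was 164, 169.6 and 120.5 cpm in control cells, 102, 107 and 59.4 cpm after VLDL-sized and 111, 113 and 66.7 cpm after CHYL-sized particles. Replicate 3 was the lowest of each group, and the control library of replicate 3 lay just above the highest particle libraries, so the groups did not overlap. Txnip fell after VLDL-sized particles, by 42.0% (log2 -0.79, SE 0.25, adjusted p = 0.031). After CHYL-sized particles it was 36.9% lower, a log2 value of -0.66 (SE 0.25) that did not pass (adjusted p = 0.075).

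The call for Txnip depended on which libraries were used and on whether replicate 3 was modelled apart. The fall after VLDL-sized particles was lost without control replicate 1 (log2 -0.72, adjusted p = 0.093), without control replicate 2 (-0.70, adjusted p = 0.096) and without VLDL-sized replicate 3 (-0.51, adjusted p = 0.094). The fall after CHYL-sized particles passed without control replicate 3 (-0.82, adjusted p = 0.044), without VLDL-sized replicate 3 (-0.66, adjusted p = 0.027) and with only the control and CHYL-sized libraries in the model (-0.67, adjusted p = 0.045). Without all 3 libraries of replicate 3 both passed, at -0.67 (SE 0.05, adjusted p = 7.8e-08) and -0.57 (SE 0.05, adjusted p = 6.1e-07), where 43.4% and 33.8% of genes passed. With replicate 3 as a term in the model of all 9 libraries both passed as well, at -0.78 (SE 0.06, adjusted p = 1.8e-07) and -0.66 (SE 0.06, adjusted p = 1.3e-06), where 49.2% and 40.7% of genes passed. Without all 3 libraries of replicate 1 neither passed, at -0.84 (adjusted p = 0.13) and -0.72 (adjusted p = 0.23), and without those of replicate 2 neither passed, at -0.85 (adjusted p = 0.1) and -0.71 (adjusted p = 0.2). Both log2 values stayed below 0 in the main test and in all 22 alternatives. The ratio of Txnip to Txn1 counts within a library went from 0.538 in control to 0.216 and 0.241 after the particles. This log2 difference of -1.24 separated all particle libraries from control (exact permutation test, two-sided, p = 0.024, adjusted p = 0.024). Txnip was lower and Txn1 higher in every particle library than in every control library, so that separation and its p were fixed in advance. The ratio also holds the rise of Txn1, and it adds no separate support to the call for Txnip.

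The Txnip promoter is shown for a match to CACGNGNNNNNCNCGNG, the paired E-box letters of the carbohydrate response element that MondoA and Mlx are known to bind, held by 0.365% of all windows. In the sequence, on the plus strand of GRCm38.p6 chr3:96557707-96557956, capitals mark the match at bases -85 to -69. Of the 8 members with a window, Txnip was the one with it, and a single E-box (CACGTG), held by 7.15% of windows, was in none.
Txnip: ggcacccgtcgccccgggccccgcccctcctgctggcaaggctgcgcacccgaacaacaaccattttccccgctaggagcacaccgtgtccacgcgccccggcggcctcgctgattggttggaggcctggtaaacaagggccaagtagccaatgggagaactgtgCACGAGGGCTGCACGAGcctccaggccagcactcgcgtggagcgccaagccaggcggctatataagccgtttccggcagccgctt

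**Figure D3:**
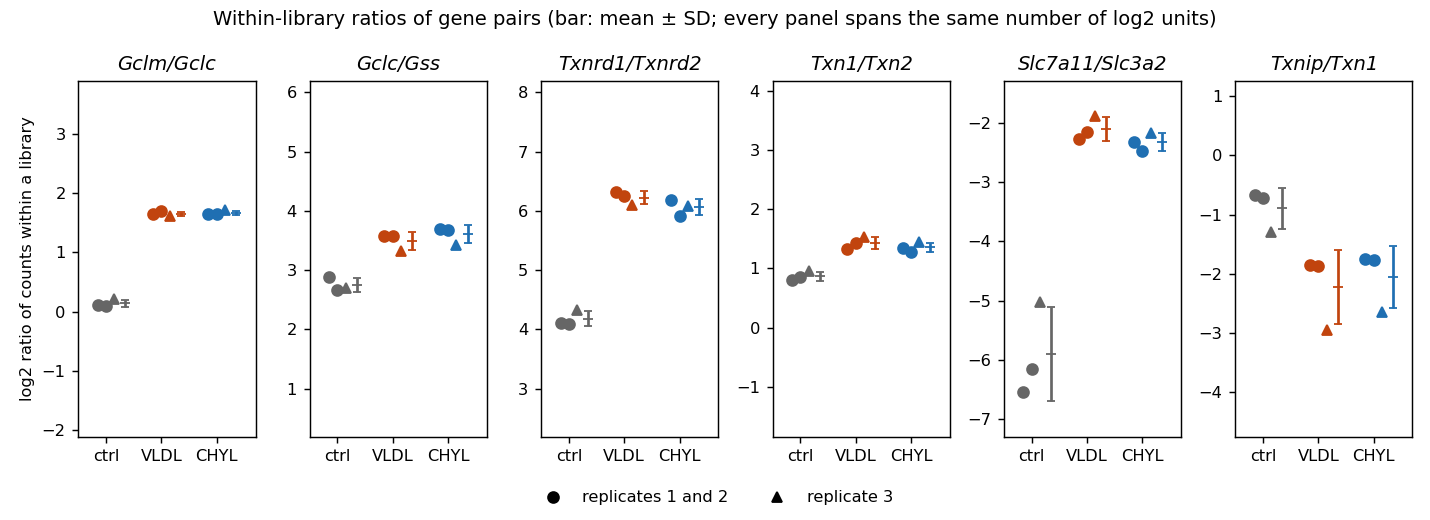
Log2 ratio of the counts of 2 genes within each library (y axis, every panel spanning the same number of log2 units) for 6 gene pairs in control, VLDL-sized and CHYL-sized libraries (x axis), with circles for replicates 1 and 2, triangles for replicate 3 and bars for the mean and SD. In every panel all particle libraries lie on one side of all control libraries, from a shift of 0.52 for Txn1 over Txn2 to 3.69 for Slc7a11 over Slc3a2.

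The order of the genes by abundance changed as well. Exonic length here merges the exons of all annotated transcripts, 1 for Txn1 and 16 for Txnrd2, whichever of them were expressed. The order between genes is therefore rough, and the SDs do not hold this error. Divided by exonic length, Txn1 led in control at 265 ± 16.0 cpm per kb (SD, n = 3). It was followed by Txnip (48.5 ± 8.64), Srxn1 (42.2 ± 4.10), Gclc (37.3 ± 0.453), Txnrd1 (37.2 ± 2.95) and Gsr (33.5 ± 3.39). The libraries of Txnip and Srxn1 overlapped, those of Srxn1 all lay above those of Gclc, and Gclc, Txnrd1 and Gsr did not differ from their neighbours beyond their spread. Gclm (24.6 ± 1.40) came next, then Gss (3.55 ± 0.302) and Txnrd2 (3.29 ± 0.0559), which did not differ beyond their spread, and Slc7a11 was last at 0.364 ± 0.220. After VLDL-sized particles Srxn1 (406 ± 88.1 cpm per kb) and Txn1 (385 ± 42.7) shared the top, followed by Gclm (218 ± 4.87), Gsr (157 ± 17.6), Txnrd1 (139 ± 8.59) and Gclc (116 ± 4.32), where the libraries of Gsr and Txnrd1 overlapped. Txnip (28.7 ± 8.46) then stood below all of these, above Slc7a11 (7.89 ± 2.23) and Gss (6.61 ± 0.961), which did not differ beyond their spread, and Txnrd2 (3.00 ± 0.429). After CHYL-sized particles the order was the same but for its top pair, with Txn1 at 373 ± 22 and Srxn1 at 342 ± 76.0 cpm per kb, and for Gss (5.85 ± 0.743) and Slc7a11 (5.79 ± 1.60), pairs within their spread.

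Whether the size of the particle mattered was asked by comparing the 3 VLDL-sized with the 3 CHYL-sized libraries. With all 9 libraries, none of the 10 genes passed (limma-voom, 0 at an unadjusted p under 0.05 as well, and 0 with edgeR and with DESeq2). Of all 12637 genes 0% passed, while 813 (6.43%) had an unadjusted p under 0.05 and the groups of 11.3% did not overlap, and edgeR called 0 and DESeq2 24. The largest difference among the 10 was that of Slc7a11, 1.36-fold higher after VLDL-sized particles (log2 0.45, 95% interval -0.05 to 0.95, adjusted p = 0.8), followed by Srxn1 at 1.19-fold (log2 0.25, interval -0.12 to 0.61, adjusted p = 0.86). For the other 8 genes the log2 differences lay between -0.14 and 0.17, and for Gclc (interval -0.04 to 0.16), Gclm (-0.08 to 0.16) and Txnrd1 (-0.14 to 0.17) the intervals bound any difference closely.

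The intervals of that comparison were narrower once the replicate 3 libraries were treated apart, and a pair of genes then passed. Within replicates 1 and 2, Slc7a11 was at 90.4 and 93.5 cpm after VLDL-sized and 69.1 and 66.4 cpm after CHYL-sized particles, and within replicate 3 at 146 and 106 cpm. VLDL-sized was the higher in each replicate number. Srxn1 followed the same pattern, at 1008 and 995 against 851 and 833 cpm, and at 1431 against 1213 cpm. Without the replicate 3 libraries Slc7a11 (log2 0.44, interval 0.33 to 0.56, adjusted p = 8.9e-04) and Srxn1 (log2 0.25, interval 0.17 to 0.33, adjusted p = 0.0051) were higher after VLDL-sized than after CHYL-sized particles, where 2.07% of genes passed. With replicate 3 as a term in the model of all 9 libraries both passed too (log2 0.45, adjusted p = 0.0073, and log2 0.25, adjusted p = 0.024), where 1.89% of genes passed. None of the other 8 genes passed in either setting. The estimates moved with single libraries of replicate 3. Without VLDL-sized replicate 3 Slc7a11 was at 0.23 and Srxn1 at 0.07, without CHYL-sized replicate 3 they were at 0.66 and 0.42, and leaving out any other single library gave values between these, none of which passed.

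**Figure D4:**
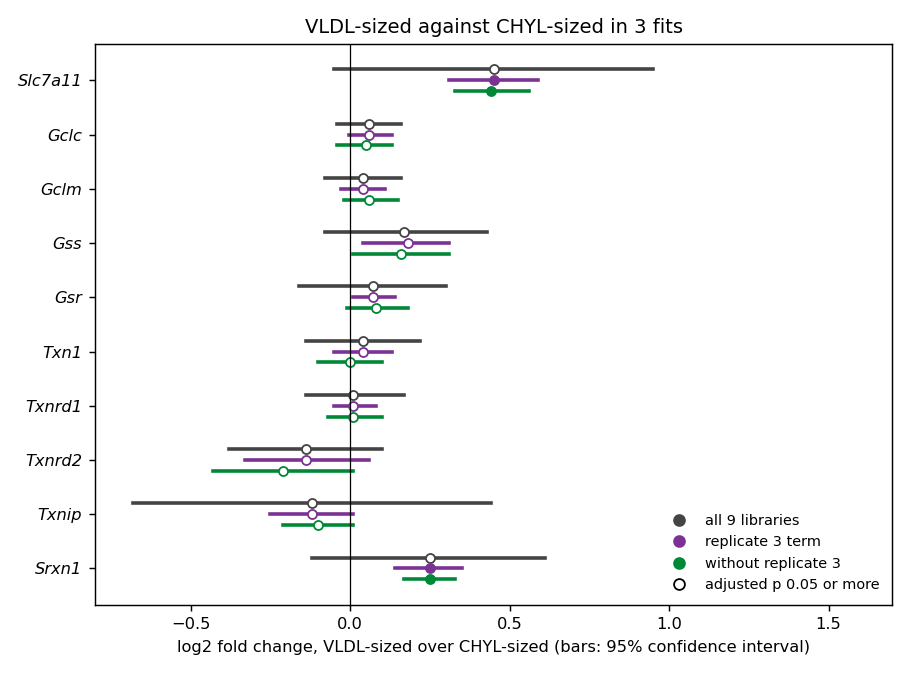
Log2 fold change of VLDL-sized over CHYL-sized particles (x axis) for each of the 10 genes (y axis) with 95% confidence intervals from limma-voom, for all 9 libraries, for a model with a replicate 3 term and without the replicate 3 libraries, with open circles for an adjusted p of 0.05 or more. The estimate of Slc7a11 is 0.44 to 0.45 and that of Srxn1 0.25 in these 3 settings, while their intervals narrow in the last 2.

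Single genes of each of 7 lists of related genes changed. The lists were written from general knowledge of the pathway, and their counts are read beside the same 35.6% and 25.7% of all genes. For cysteine supply, glutathione turnover, glutathione-using enzymes, selenocysteine and the arrestin-domain family, the numbers that passed were within 2 genes of what these shares give, so no change of these lists as a whole is read from them. Without the replicate 3 libraries, where 43.4% and 33.8% of all genes passed, the counts against control in each direction moved by at most 2 genes a list. The largest moves were from 2 to 4 genes higher for glutathione-using enzymes and from 2 to 0 genes lower for the arrestin-domain family, both after VLDL-sized particles. Between the particles, no gene of the 7 lists passed with all 9 libraries. Without replicate 3, where 2.07% of genes passed, 3 genes of cysteine supply were higher after VLDL-sized than after CHYL-sized particles and 1 was lower. Also higher there were 5 transcription regulators, 1 gene of glutathione turnover and 2 thioredoxin relatives, and 1 thioredoxin relative was lower. Of 8 tested genes of cysteine supply, 3 rose and 1 fell after VLDL-sized particles, and 3 rose after CHYL-sized particles, with median log2 fold changes of 0.13 and 0.04. Those that rose were Slc3a2, the neutral amino acid exchanger Slc1a4 (7.68 ± 2.78 cpm in control cells, 23.6 ± 5.15 and 15.0 ± 5.27 after the particles, SD, n = 3, log2 1.65 and 0.97) and cystathionine gamma-lyase Cth, which makes cysteine from cystathionine (29.7 ± 3.87, 57.5 ± 2.89 and 44.1 ± 0.491 cpm, log2 0.96 and 0.58). Mat2a, which makes S-adenosylmethionine, fell after VLDL-sized particles (log2 -0.57, adjusted p = 0.013) and was at -0.35 after CHYL-sized particles (adjusted p = 0.12), a value that passed without the replicate 3 libraries (log2 -0.31, adjusted p = 1.4e-04). Slc1a4, whose replicate 3 library was the highest of each group, was then at 1.76 and 0.98.

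Of 9 tested genes of glutathione turnover and transport, 4 rose after VLDL-sized and 2 after CHYL-sized particles, and none fell, with medians of 0.17 and 0.19. Abcc1, a pump that exports glutathione and its conjugates, rose from 107 ± 8.91 cpm to 383 ± 27.7 and 348 ± 27.4 cpm (SD, n = 3, log2 1.85 and 1.71, adjusted p = 1.2e-07 and 2.4e-07). Chac1, which degrades glutathione, was at 6.18 ± 4.19, 20.1 ± 4.83 and 12.6 ± 5.03 cpm and passed after VLDL-sized particles (log2 1.88, adjusted p = 0.0035) but not after CHYL-sized particles (log2 1.15, adjusted p = 0.066). Replicate 3 was its highest library in each group, and without replicate 3 it passed in both (log2 2.20 and 1.36, adjusted p = 1.5e-07 and 4.9e-05). Its relative Chac2 passed after VLDL-sized but not after CHYL-sized particles (log2 0.79 and 0.29), also without replicate 3 (log2 0.93 and 0.30, adjusted p = 0.0028 and 0.37), and the dipeptidase Cndp2 rose in both (log2 0.48 and 0.43).

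Among 10 tested enzymes that use glutathione, 2 rose and 1 fell after VLDL-sized particles, and 3 rose and 1 fell after CHYL-sized particles. Esd, which hydrolyses S-formylglutathione, rose from 134 ± 13.8 to 563 ± 38.9 and 506 ± 23.1 cpm (SD, n = 3, log2 2.08 and 1.92, adjusted p = 3.8e-08 and 8.4e-08). The peroxidase Gpx1 fell in both comparisons (log2 -0.50 and -0.43, adjusted p = 0.014 and 0.037), and Gpx4, which reduces lipid hydroperoxides, was at 184 ± 5.55, 176 ± 3.14 and 187 ± 9.52 cpm and passed in neither (log2 -0.06 and 0.03). Glutaredoxin Glrx3 rose slightly (log2 0.22 and 0.17), and Glrx passed after CHYL-sized particles (log2 0.40, adjusted p = 0.039) and, without the replicate 3 libraries, after VLDL-sized particles too (log2 0.35, adjusted p = 3.3e-05). With library size alone the rises of Glrx3 and Glrx did not pass, and Gpx4 fell after VLDL-sized particles (log2 -0.15, adjusted p = 0.03). The medians of this list were 0.14 and 0.11. Gpx4 was named after its values were seen.

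Among 17 tested thioredoxin relatives and clients, 6 rose and 4 fell after VLDL-sized particles, and 6 rose and 2 fell after CHYL-sized particles, with medians of 0.04 and 0.05. Prdx1, a peroxiredoxin that thioredoxin reduces and Srxn1 repairs, was the most changed of them. Its level was 926, 979.9 and 1041 cpm in control cells, 3677, 3707 and 4242 cpm after VLDL-sized and 3323, 3297 and 3774 cpm after CHYL-sized particles. Every particle library was more than 3 times as high as every control library, and the rises were 1.98 and 1.82 on the log2 scale (adjusted p = 3.9e-08 and 9.0e-08). The sestrins went both ways, with Sesn2 higher (16.4 ± 7.80, 43.7 ± 5.09 and 29.0 ± 8.31 cpm, log2 1.50 and 0.89) and Sesn1 lower (32.5 ± 9.72, 12.7 ± 2.98 and 14.1 ± 3.93 cpm, log2 -1.34 and -1.20). Without the replicate 3 libraries Sesn2 was at 1.77 and 1.02 and Sesn1 at -1.41 and -1.23, and all these changes passed. Of the mitochondrial genes, the methionine sulfoxide reductase Msrb2 fell (log2 -0.72 and -0.63), and the peroxiredoxin Prdx3, named after its values were seen, rose (log2 0.34 and 0.26).

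Thioredoxin reductases need selenocysteine. Of 7 tested genes that make or insert it, 1 rose and 2 fell after VLDL-sized particles, and 1 rose and 1 fell after CHYL-sized particles, with medians of -0.09 and -0.08. Sephs2, the selenophosphate synthetase, rose (log2 0.31 and 0.32, and 0.22 and 0.24 with library size alone, which did not pass), Sephs1 fell (log2 -0.39 and -0.29), and the elongation factor Eefsec fell after VLDL-sized particles (log2 -0.20, adjusted p = 0.045).

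Arrdc4, the closest relative of Txnip, rose. Of 6 tested genes of the arrestin-domain family and of MondoA and its partner, 2 rose and 2 fell after VLDL-sized particles, and 2 rose and 1 fell after CHYL-sized particles, with medians of 0.05 and 0.03. Arrdc4, which like Txnip is known to respond to glucose through MondoA, was at 1.30, 1.39 and 1.16 cpm in control cells, 4.38, 4.72 and 4.19 cpm after VLDL-sized and 4.12, 3.78 and 4.97 cpm after CHYL-sized particles. It rose in both comparisons without overlap (log2 1.77 and 1.72, SE 0.18 each, adjusted p = 3.6e-05 and 8.1e-05). Arrdc3 rose too, from 12.6 ± 2.99 to 31.4 ± 5.15 and 27.5 ± 7.85 cpm (SD, n = 3, log2 1.34 and 1.12), and Arrdc2 fell (log2 -0.40 and -0.47). Arrdc1 fell after VLDL-sized particles (log2 -0.26, adjusted p = 0.04), and without the replicate 3 libraries the falls of Arrdc2 (log2 -0.36 and -0.30, adjusted p = 0.053 and 0.11) and Arrdc1 (log2 -0.17, adjusted p = 0.075) did not pass. Arrdc3 was then at 1.00 and 0.69 and passed, while Mlxip, which encodes MondoA, and Mlx passed in neither comparison.

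The transcription regulators had the highest median of the 7 lists. After VLDL-sized particles 8 of 10 rose and 1 fell, and after CHYL-sized particles 6 rose and 1 fell, with medians of 0.63 and 0.51. Nfe2l2, which encodes NRF2, was at 256, 248 and 347 cpm in control cells, 244, 251 and 267 cpm after VLDL-sized and 245, 249.9 and 283 cpm after CHYL-sized particles. The groups overlapped, replicate 3 was the highest of each, and no change passed (log2 -0.14 and -0.11, adjusted p = 0.37 and 0.51). Bach1, a repressor at the same elements, was at 50.9, 54.6 and 62.4 cpm in control cells, 147, 147 and 177 cpm after VLDL-sized and 129, 114 and 164 cpm after CHYL-sized particles. It rose without overlap (log2 1.49 and 1.27, SE 0.13 each, adjusted p = 1.5e-05 and 8.2e-05). The small partner Maff rose (log2 1.47 and 1.15), as did the stress factors Atf3 (143 ± 63.3, 420.4 ± 60.3 and 327 ± 75.4 cpm, SD, n = 3, log2 1.64 and 1.26) and Atf4 (259 ± 84.2, 502 ± 57.6 and 412 ± 108 cpm, log2 0.99 and 0.68, adjusted p = 0.0043 and 0.039). The particle libraries of Atf4 overlapped with control after CHYL-sized particles through the control library of replicate 3, at 357 cpm against 208 and 213 cpm in the other control libraries. Without replicate 3 its log2 fold changes were 1.16 and 0.73 (adjusted p = 1.2e-09 and 2.5e-07), and those of Atf3 were 1.86 and 1.42.

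**Figure D5:**
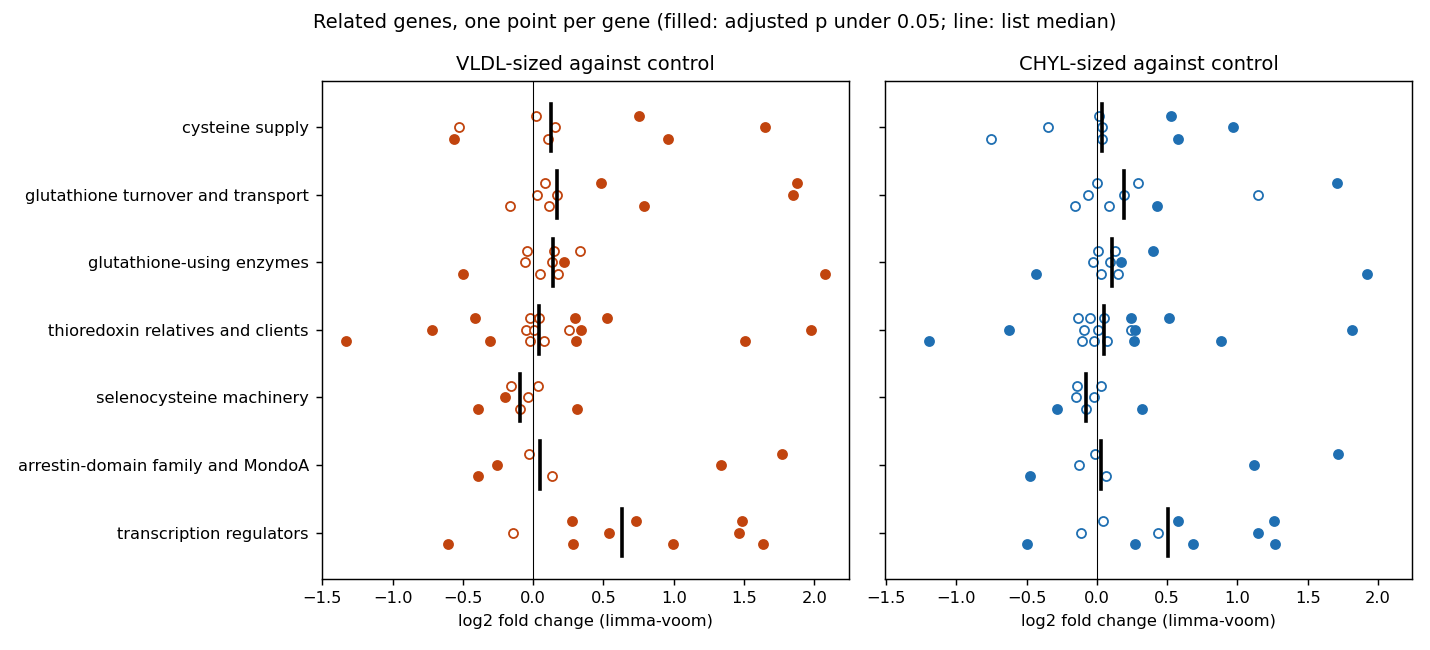
Log2 fold change (x axis) of each tested gene in 7 lists of related genes (y axis), after VLDL-sized particles on the left and CHYL-sized particles on the right, with filled circles for an adjusted p under 0.05 (limma-voom) and a line for the list median. The medians lie between -0.09 and 0.63, highest for the transcription regulators, and single genes such as Prdx1 (1.98), Esd (2.08) and Abcc1 (1.85) stand far to the right of their lists.

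The genes whose levels were most like those of Slc7a11 and Txnip over the 9 libraries are given as a description, since the libraries share their groups. For Slc7a11, among 11419 genes with a mean of at least 1 cpm, these were Jag1 (Pearson r 0.999), Fth1 (0.998), Sqstm1 (0.998), Slc2a1 (0.997) and Cxcr4 (0.997). Fth1, the heavy chain of ferritin, stood at 4665 ± 424 cpm in control and 9159 ± 511 and 8418 ± 361 cpm after the particles (SD, n = 3). Jag1, a Notch ligand, went from 12.6 ± 4.89 to 86.6 ± 12.7 and 68.1 ± 13.9 cpm. For Txnip they were Mbd4 (0.993), Zfp217 (0.991), Mitd1 (0.990), Stat2 (0.990) and Stk17b (0.989), all lower after the particles on average, with Stat2 at 26.8 ± 5.95 cpm in control and 16.6 ± 4.69 and 16.5 ± 3.92 cpm after them.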

How the data were processed

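RNAseq of RAW 264.7 cells was read from the deposited gene table. Per the methods, the authors mapped reads with Salmon 0.14.1 to GRCm38.p6 transcripts (GENCODE M22) and summarized them to genes with tximport. What the authors deposited is the estimated count of each gene in each library, as Salmon and tximport give it. Their methods mention a correction for transcript length and depth, but 58.3% of the values above 10 were exactly whole numbers, with no tolerance, so the values were treated as unscaled, and rounded for edgeR and DESeq2. Such counts are assigned to genes by estimation, which can share reads among overlapping genes. Symbols matched 54346 of 54432 identifiers.

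Genes above 10 counts in 3 or more libraries (12637, holding 99.9% of all counts) were tested in R 4.3.3 with limma 3.58.1 (voom weights) after TMM with edgeR 4.0.16, with all 9 libraries in a model of group means and no replicate block, and Benjamini-Hochberg adjustment over all genes tested. Levels are TMM-scaled cpm. DESeq2 1.42.0 was an alternative. Ratios within a library used counts plus 0.5 and exact permutation tests in scipy 1.17.1. Coordinates and exonic lengths came from GENCODE M21 of GRCm38, and promoter windows from RefSeq on GRCm38.p6. On simulated counts with 200 changed genes, 89%, 91.5% and 91% were recovered in the 3 comparisons (12482, 12483 and 12497 genes). For changes of 1 on the log2 scale recovery was 81.4%, 85.3% and 82.1%, and 9, 7 and 12 unchanged genes were called. The simulated counts held no shared shift of replicate 3 and fewer changed genes than were called against control. They check the fit and do not give its power in these data. No pair of libraries was close enough in counts to be a duplicate. The labels do not say that replicates came from separate cultures, while the methods describe separate experiments, so the p-values measure the spread between these libraries.

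The members and lists were chosen with earlier results of these data known, as were the replicate 3 settings. Related genes named are the partners Slc3a2, Txn2, Txnrd3, Prdx1, Arrdc4, Nfe2l2 and Bach1, up to 4 genes per list with the largest absolute log2 fold change among those that passed in either comparison with control, and the 5 genes most correlated with Slc7a11 and with Txnip. Bases of motifs are counted from the RefSeq start, with -1 the base before it. The alternatives were edgeR's quasi-likelihood test, DESeq2, limma-trend, library-size and upper-quartile normalization, no filter and a filter at 50 counts, only the groups compared, the replicate block, a replicate 3 term and each library or replicate number left out, 22 in all. Some items are not reported here.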

Additional observations from a re-analysis of the deposited data

How the results depend on the processing

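Under the 22 alternatives the 8 rises against control kept their direction and their call in both comparisons, while the calls of Txnip, and of Slc7a11 and Srxn1 between the particles, changed as described above. Of the counts of calls under an alternative, 116 lay within 1.5 times the main count and 16 did not. Among all genes after VLDL-sized particles, 4500 were called, and 2224 to 5380 with a library or replicate number left out, the low values without replicate 1 (2224) and replicate 2 (2274). After CHYL-sized particles 3249 were called, 4949 with the replicate block, 5147 with a replicate 3 term and 1204 to 4182 in the fits that left out libraries, lowest without replicate 1 (1204) and replicate 2 (1306). Between the particles 0 were called, against 24 with DESeq2, 147 with the block, 239 with the replicate 3 term and 0 to 257 leaving out libraries, highest without replicate 3. Of the 10 genes 1 was called there with the block (Slc7a11), 2 with the replicate 3 term and 0 to 2 leaving out libraries. Leaving out a replicate number removes 3 libraries, so fewer samples enter, and the cause of the changes was not tested.

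The replicate numbers were not taken to pair libraries. Deviations of same-numbered libraries from their group means correlated at 0.00 to 0.10 for replicates 1 and 2 and at 0.22 to 0.28 for replicate 3, and not every library correlated best with its own number. With the replicate block the values for Txnip were -0.78 (adjusted p = 9.8e-07) and -0.66 (adjusted p = 6.0e-06) after VLDL-sized and CHYL-sized particles and that for Slc7a11 between the particles 0.45 (adjusted p = 0.024).

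Values close to 0 changed sign. Txnrd2 after CHYL-sized particles was 0.0029 with edgeR, 0.0018 with DESeq2, 0.004 with the block and 0.0012 with the replicate 3 term, and -0.05 to 0.07 leaving out libraries. Between the particles, leaving out libraries gave -0.02 to 0.18 for Gsr, -0.05 to 0.1 for Txn1, -0.03 to 0.06 for Txnrd1 and -0.37 to 0.15 for Txnip, while Slc7a11 (0.23 to 0.66) and Srxn1 (0.07 to 0.42) kept their sign. The 6 ratios kept their direction without any replicate number, where an exact permutation test of 4 against 2 libraries cannot go below p = 0.13. Of the 10 genes, Slc7a11 in control and Txnrd2 had the fewest counts, 70 and 254 in their lowest libraries, so counting error was largest there.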
